A study of Mus musculus with 3 samples.

Results

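The 10 antimicrobial and granule genes *Defa24*, *Defa22*, *Defa21*, *Defa17*, *Defa3*, *Lyz1*, *Ang4*, *Mmp7*, *Mptx2* and *Itln1* were followed across the cell classes of 3 single-cell RNA libraries of mouse small intestinal epithelium. They were chosen by name, and all 10 were among the 27998 genes measured. The WT library came from a wild-type mouse, taken on day 21 after tamoxifen. The *LApc* library came from a mouse with Lgr5-EGFP-IRES-CreERT2 and *Apc* fl/fl, taken on day 29, and the *LApcL* library from a mouse that carried *Lef1* fl/fl in addition, taken on day 21. The mice were of the C57BL/6 strain, aged 7-8 weeks at treatment, and each of them, WT included, was given tamoxifen in doses of 2 mg. In the Lgr5 line the recombinase is made in intestinal stem cells and their like, so a recombined gene is found in those cells and their descendants. EpCAM+ cells were sorted, and the study's gate left out CD45+ and Ter119+ cells. Each group was 1 mouse and 1 library, so no difference below could be tested, and genotype cannot be told apart from mouse, library and, for *LApc*, day.

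Each value is a count of unique molecular identifiers (UMIs), which stand for captured RNA molecules, and it is not scaled to gene length. Levels are CPM, the UMIs of a gene scaled to 1000000 UMIs of a cell class in a library, and ratios are UMIs per 100 *Defa24* UMIs. Intervals are 95% intervals that cover counting error only, so they are narrower than the spread between mice or cells would make them. The libraries held 11453 to 17388 barcodes and 79696291 to 191509615 UMIs, and 9601 to 14394 cells were kept, with medians of 6132 UMIs in *LApc* and 9713 and 10156 in WT and *LApcL*. Between 214 and 318 barcodes were shared by a pair of libraries, and 7 by all 3. *LApc* lost 2212 barcodes to the limit on mitochondrial UMIs, against 62 in WT and 320 in *LApcL*.

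Paneth cells sit at the base of the small intestinal crypts, next to the stem cells, and release granules of antimicrobial proteins into the crypt lumen. The alpha-defensins (*Defa* genes) are short cationic peptides that disrupt microbial membranes. They are made as inactive precursors, and in the mouse the metalloproteinase matrilysin, the product of *Mmp7*, cuts the precursors to the active form. *Lyz1* encodes the lysozyme of Paneth cells, which cleaves bacterial cell walls, *Ang4* an antimicrobial ribonuclease, *Itln1* an intelectin that binds microbial glycans, and *Mptx2* a pentraxin of the mucosa. Wnt signalling, which loss of *Apc* activates and in which *Lef1* is a transcription factor, is known to take part in Paneth cell maturation.

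The defensins lie together on chromosome 8 of GRCm38.p6 (the mm10 assembly), with *Defa21* at chr8:21025545-21026517, *Defa22* at chr8:21162277-21163249, *Defa3* at chr8:21287409-21288377, *Defa17* at chr8:21655767-21656736 and *Defa24* at chr8:21734494-21735471. *Lyz1* lies at chr10:117287795-117292868, *Ang4* at chr14:51763892-51773590, *Mmp7* at chr9:7692090-7699585, *Mptx2* at chr1:173274461-173277756 and *Itln1* at chr1:171518123-171535325. The coding sequences of 3 defensins are shown because the ratios below separate them, and because near-identical copies limit which of them a read can be counted for. Each is the longest open reading frame of the annotated transcript, 282 bases with the stop codon. In *Defa22* and *Defa17*, capitals mark bases that differ from, or have no partner in, the aligned *Defa24* sequence.

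Defa24: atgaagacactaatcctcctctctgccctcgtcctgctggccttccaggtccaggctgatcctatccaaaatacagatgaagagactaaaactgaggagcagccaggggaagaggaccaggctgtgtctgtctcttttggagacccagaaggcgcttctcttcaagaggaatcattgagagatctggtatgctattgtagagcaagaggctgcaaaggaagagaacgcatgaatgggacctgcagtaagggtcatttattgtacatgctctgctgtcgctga
Defa22: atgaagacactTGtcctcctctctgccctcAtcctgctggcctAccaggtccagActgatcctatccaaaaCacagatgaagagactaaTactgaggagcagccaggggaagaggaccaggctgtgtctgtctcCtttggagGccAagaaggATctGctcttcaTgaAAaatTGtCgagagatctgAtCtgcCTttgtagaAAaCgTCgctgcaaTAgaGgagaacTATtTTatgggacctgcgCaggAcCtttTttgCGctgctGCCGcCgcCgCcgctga
Defa17: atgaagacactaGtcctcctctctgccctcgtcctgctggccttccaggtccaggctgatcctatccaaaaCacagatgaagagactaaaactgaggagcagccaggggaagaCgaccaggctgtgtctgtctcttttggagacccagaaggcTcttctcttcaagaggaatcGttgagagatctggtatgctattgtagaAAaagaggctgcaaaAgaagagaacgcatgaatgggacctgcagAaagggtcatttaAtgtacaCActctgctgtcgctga
Over the reading frame, *Defa17* was identical to *Defa24* at 270 of 282 aligned bases (95.7%), while *Defa22* and *Defa24* shared 81.5% of aligned positions. *Defa22* and *Defa21* were identical at 280 of 282 bases, and the reading frames of *Defa17* and *Defa3* did not differ at any base. Of the 90-base windows of each transcript, 45.2% of those of *Defa22* and 45.3% of those of *Defa21* also occurred in the other gene, as did 90.9% of those of *Defa17* and 87.2% of those of *Defa3*. No window of *Defa24*, *Ang4*, *Mmp7* or *Itln1* was found in another gene, and 3.75% of those of *Lyz1* were found in *Lyz2*. Reads that fit several genes equally well are not counted by Cell Ranger, so the split between *Defa22* and *Defa21*, and between *Defa17* and *Defa3*, is uncertain, and the level of *Defa17* and *Defa3* may be understated.

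Promoters from RefSeq (GRCm38.p6, from 250 bases before to 50 after the gene start) were at hand for 7 of the 10 genes. Those of *Defa22* and *Mmp7* are shown because the ratios below set these genes apart, and that of *Lyz1* because its level in goblet-like cells differed most between libraries. Capitals mark CTTTGAT or its reverse complement ATCAAAG, letters of the core that Tcf/Lef factors are known to bind, searched on both strands. The promoters of *Defa22* (chr8:21162027-21162326, plus strand) and *Defa21* (chr8:21025295-21025594, plus strand) differed at 0 bases. *Mmp7* is at chr9:7691840-7692139 on the plus strand and *Lyz1* at chr10:117292819-117293118 on the minus strand.

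Defa22 promoter: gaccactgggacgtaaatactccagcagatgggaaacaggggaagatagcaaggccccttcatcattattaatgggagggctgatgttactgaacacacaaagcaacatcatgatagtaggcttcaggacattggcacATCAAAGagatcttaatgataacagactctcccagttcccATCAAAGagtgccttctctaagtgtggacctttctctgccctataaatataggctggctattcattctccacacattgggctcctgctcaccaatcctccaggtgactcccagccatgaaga
Mmp7 promoter: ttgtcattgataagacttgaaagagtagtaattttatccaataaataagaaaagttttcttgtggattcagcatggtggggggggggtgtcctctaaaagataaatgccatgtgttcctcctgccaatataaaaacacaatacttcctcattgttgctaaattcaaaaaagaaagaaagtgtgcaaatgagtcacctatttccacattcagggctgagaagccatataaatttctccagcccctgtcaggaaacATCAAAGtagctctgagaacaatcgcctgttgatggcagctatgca
Lyz1 promoter: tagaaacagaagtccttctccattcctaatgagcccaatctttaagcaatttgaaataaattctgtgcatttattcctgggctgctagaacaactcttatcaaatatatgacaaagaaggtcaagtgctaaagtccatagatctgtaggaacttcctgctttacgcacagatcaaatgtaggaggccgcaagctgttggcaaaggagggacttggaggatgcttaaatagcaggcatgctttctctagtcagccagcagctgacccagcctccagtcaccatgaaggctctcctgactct
The letters occurred at bases 139 and 179 in *Defa22* and *Defa21* and at base 255 in *Mmp7*, and not in the windows of *Lyz1*, *Ang4*, *Mptx2* or *Itln1*. Of all 32851 promoters in the table, 1225 (3.73%) held them. A match is a description of the letters and not of binding.

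The 10 genes made up 43.3% of all UMIs of Paneth-like cells in WT, 36.5% in *LApc* and 37.2% in *LApcL*, against 0.476%, 0.132% and 0.153% in enterocyte-like cells, absorptive cells that are not known to make these granule proteins. Cell classes were rebuilt from fixed markers that left the 10 genes out, and "like" marks that. Of the 13 other Paneth markers, such as *Defa26*, *Mptx1* and *Habp2*, 9 or 10 reached 10 CPM in Paneth-like cells, with a summed level of 250368 to 274859 CPM, against 715 to 2337 CPM in enterocyte-like cells. The class was named from these same markers, so their levels describe the class and do not test its label. *Mptx1*, at 6.69 CPM or less there, did not reach 10 CPM in any library. Paneth-like cells numbered 428 of 10138 in WT (4.22%), 142 of 9601 in *LApc* (1.48%) and 165 of 14394 in *LApcL* (1.15%), with medians of 43692.5, 13918 and 18169 UMIs. These shares depend on how many cells of other kinds were sorted, of which adenoma-enriched cells were 59.5% in *LApcL*.

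**Figure D1:**
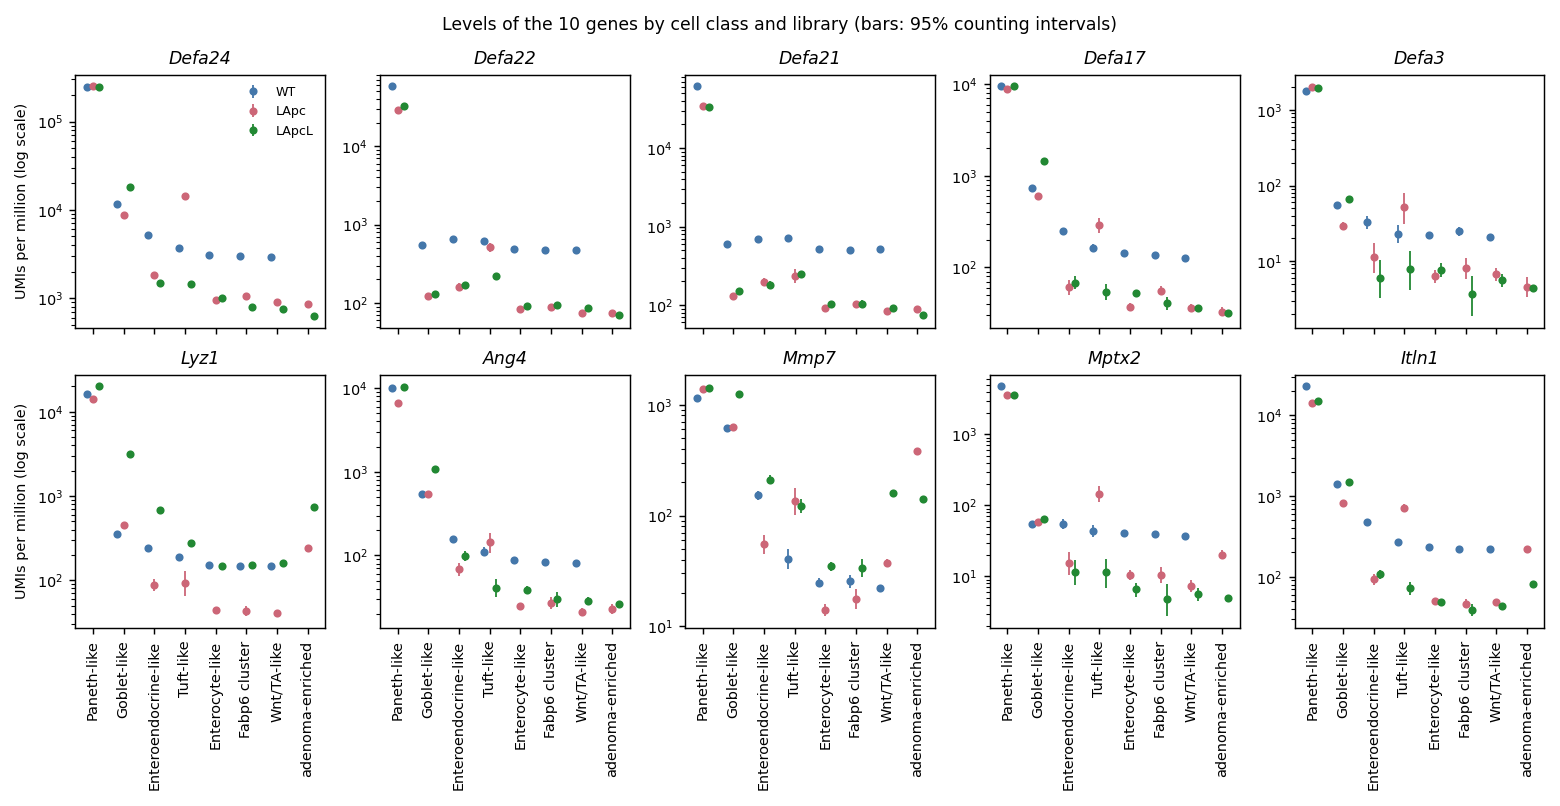
Level of each gene in CPM (log axis) by cell class for the WT, LApc and LApcL libraries, with points for the summed class and bars for 95% counting intervals. Paneth-like cells hold the highest point of every gene in each library, and Mmp7 is the gene whose goblet-like level (621 CPM in WT) comes nearest to its Paneth-like level (1149.8 CPM).

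Enterocyte-like cells served as the gauge of RNA set free from broken cells, since 1 source of free RNA keeps its genes in 1 ratio in every droplet. *Defa24* was at 3053 CPM in enterocyte-like cells of WT, 958 in *LApc* and 1000.03 in *LApcL*, so the level was highest in WT. After thinning to 3000 UMIs, 99.95% of enterocyte-like cells of WT held a *Defa24* UMI, and 87.3% and 85.4% of those of *LApc* and *LApcL* did, after 244 and 12 shallower cells had been left out. In *LApc*, 9 of the 10 genes were past 2-fold lower than in WT in enterocyte-like cells, where 4.28% of all genes tested were past 2-fold in either direction, and the exception was *Mmp7*, at 24.8 CPM in WT and 14.0 in *LApc*. A share of cells with a UMI of these genes is therefore read here only against the enterocyte-like share of the same library.

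In WT, the ratios among the genes in enterocyte-like cells were near those of all cells of the library pooled. Per 100 *Defa24* UMIs, *Defa22* was at 15.8 in enterocyte-like cells and at 22.0 over all cells, *Defa17* at 4.73 and 4.06, *Lyz1* at 4.96 and 6.34, *Mmp7* at 0.813 and 0.828, and *Itln1* at 7.56 and 9.42. Cells of the Wnt/TA-like class (crypt base and transit-amplifying markers) and of an unnamed cluster led by *Fabp6* gave the same ratios as enterocyte-like cells of WT, within 0.18 on the log2 scale for each of the 9 genes set against *Defa24*. In *LApcL* the enterocyte-like ratios of *Lyz1* and *Mmp7* stood higher, at 14.6 and 3.49 per 100 *Defa24*, against 4.62 and 1.47 in *LApc* and 4.96 and 0.813 in WT. Over all cells of *LApcL*, *Lyz1* was at 16.1 and *Mmp7* at 3.05 per 100 *Defa24*. For *Lyz1* and *Mmp7*, the enterocyte-like ratio was thus near that of the whole library. *Mptx2* was farther from it, at 0.658 in enterocyte-like cells and 1.24 over all cells of *LApcL*, and *Itln1* was at 4.86 and 6.82.

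**Figure D2:**
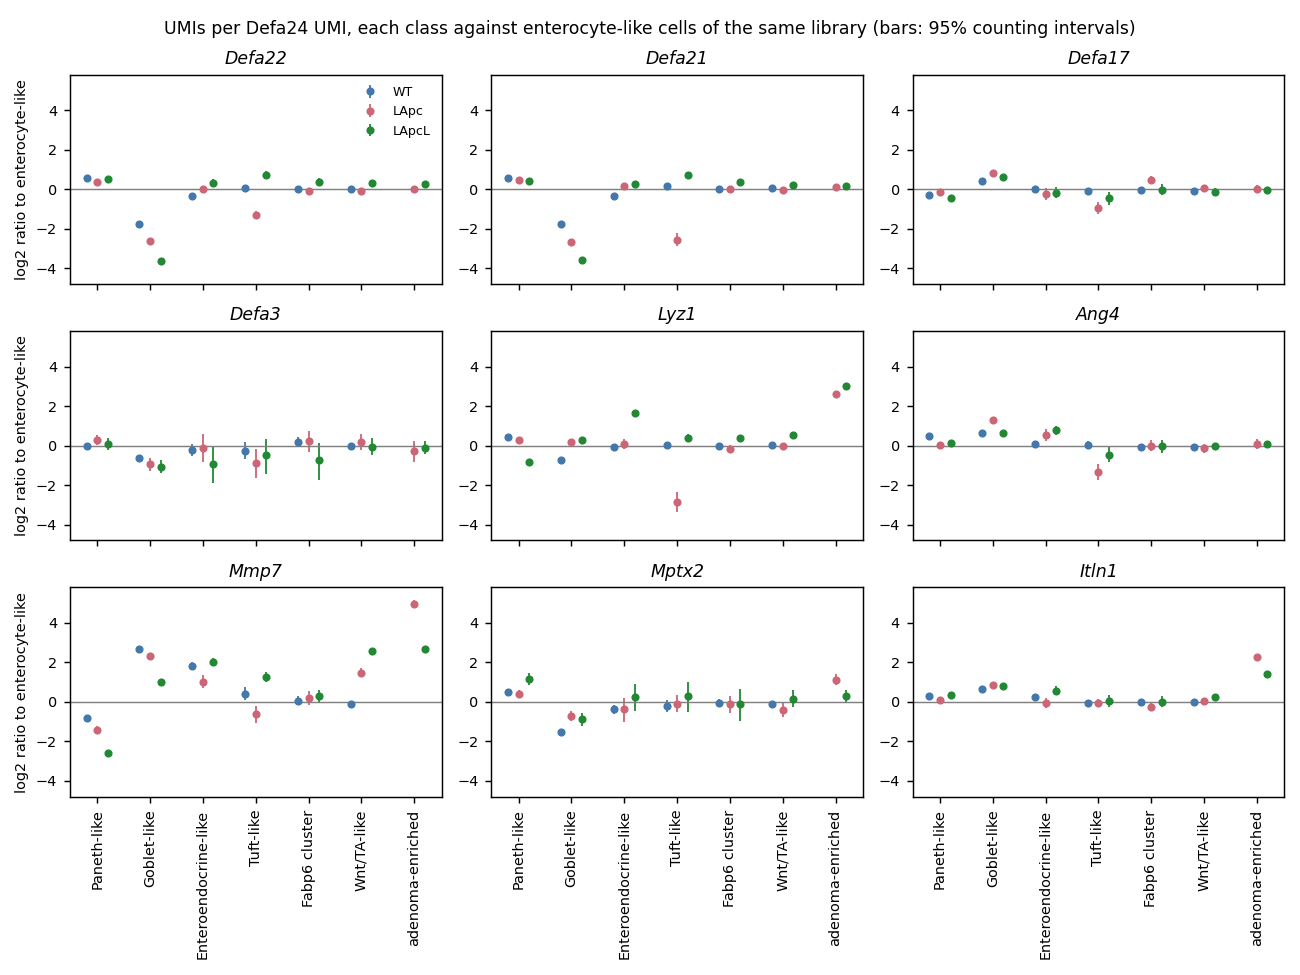
Log2 of the UMIs per Defa24 UMI in each class relative to enterocyte-like cells of the same library, by gene, with bars for 95% counting intervals and the line at 0 for the enterocyte-like ratio. Defa22 and Defa21 lie at -1.75 to -3.65 in goblet-like cells, whereas Lyz1 (2.62 and 3.00), Mmp7 and Itln1 are above the line in adenoma-enriched cells.

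*Defa24* held about the same level in Paneth-like cells of all 3 libraries, at 246398 CPM in WT, 251647 in *LApc* and 244328 in *LApcL*. *Defa22* was at 58267 CPM in WT, 28759.9 in *LApc* and 32253 in *LApcL*, and its near-copy *Defa21* at 61377, 33987 and 33282 CPM. Both thus stood higher in WT than in either mutant library, which lay close together. On the log2 scale, *LApc* was below WT by -1.02 (interval -1.03 to -1.01) for *Defa22* and by -0.85 for *Defa21*. *Defa17*, at 9517, 8957 and 9452 CPM, and *Defa3*, at 1767, 2017 and 1976 CPM, differed between libraries by at most 0.19 on the log2 scale.

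*Itln1* followed the order of *Defa22*, with 22945 CPM in WT, 14115 in *LApc* and 15060.4 in *LApcL*. *Mptx2* was at 4744 CPM in WT against 3636 and 3592 CPM in *LApc* and *LApcL*. *Lyz1* and *Ang4* did not follow that order. *Lyz1* was at 16435 CPM in WT, 14339 in *LApc* and 20002 in *LApcL*, and *Ang4* at 9907, 6616 and 10408 CPM, so that *LApc* was lowest for both. *Mmp7* was the least abundant of the 10 in this class, at 1149.8 CPM in WT, 1393 in *LApc* and 1429.9 in *LApcL*. Between *LApc* and WT, 1 of the 10 genes, *Defa22*, was past 2-fold, where 25.0% of the 3485 genes tested were, nearly all of them higher in *LApc* (863 against 9 lower). The median log2 ratio of all genes in that comparison was 0.72, against -0.29 for the 10 genes, and Paneth-like cells of WT were also the deepest.

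Between *LApcL* and *LApc*, none of the 10 genes was past 2-fold in Paneth-like cells, where 6.79% of the 3872 genes tested were. Their median log2 ratio was 0.06 and that of all genes 0.08. *Ang4* differed most, at 0.65 on the log2 scale (interval 0.63 to 0.68), then *Lyz1* at 0.48 (0.46 to 0.50) and *Defa22* at 0.17 (0.15 to 0.18), and the other 7 genes lay within 0.09 of 0. Relative to *Defa24*, *Lyz1* was at 6.67 per 100 in WT, 5.70 in *LApc* and 8.19 in *LApcL*, and *LApcL* thus exceeded *LApc* by 0.52 on the log2 scale (0.50 to 0.54). That difference was 1.25 (1.203 to 1.289) when doublets were removed at 2 times the expected rate, which took 66.9% of the Paneth-like cells of *LApc* and 58.2% of those of *LApcL*, but 15.4% of those of WT, and left 47 and 69 cells in the mutant libraries, with *Lyz1* at 4.51 and 10.7 per 100 *Defa24*. The removal thus fell mostly on Paneth-like cells of the libraries that had few of them.

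A transcript of the adenoma, *Sox17* or *Msx1*, was found in 65.5% of Paneth-like cells of *LApcL*, 7.04% in *LApc* and 0% in WT, and in 32.2%, 1.98% and 0% of enterocyte-like cells. These shares were not thinned, and median depths in *LApcL* were 18169 UMIs in Paneth-like and 8174 in enterocyte-like cells. By level, the 2 classes of *LApcL* were close, with *Sox17* at 38.0 and 36.6 CPM and *Msx1* at 28.7 and 34.9 CPM. In *LApcL*, Paneth-like cells with such a UMI had *Lyz1* at 8.48 per 100 *Defa24* and those without at 7.75. In cells without one, the log2 difference between *LApcL* and *LApc* was 0.44. Enterocyte-like cells of *LApcL* with such a UMI had *Lyz1* at 21.4 per 100 *Defa24*, against 10.8 in those without. For *Mmp7* the ratios were 4.88 and 2.70. The gauge class of *LApcL* thus did not hold 1 ratio for *Lyz1* and *Mmp7*. Differences of other classes from it depend on which of its cells are used. Whether these UMIs are the cells' own was not tested.

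Within a library, Paneth-like cells differed widely in *Defa22* relative to *Defa24*, and less so in *Defa17*. In WT, the percentiles 10, 50 and 90 of the ratio were 0.464, 19.99 and 44.3 *Defa22* UMIs per 100 *Defa24*. For *Defa17* they were 2.68, 3.59 and 5.51 in WT, 2.12, 3.25 and 6.92 in *LApc*, and 1.55, 3.22 and 10.4 in *LApcL*. The median of *Defa22* was 4.39 in *LApc* and 14.3 in *LApcL*, with percentile 90 at 32.1 and 44.2. Cells were divided at 10 *Defa22* UMIs per 100 *Defa24*, a limit set after the values had been seen, with 27 cells below and 49 above within 2-fold of it in WT, 17 and 19 in *LApc*, and 15 and 16 in *LApcL*. Below it lay 165 cells of WT (38.6%), 90 of *LApc* (63.4%) and 75 of *LApcL* (45.5%).

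In the cells under the limit, *Defa22* stood at 7801 CPM in WT, 7449.7 in *LApc* and 5564 in *LApcL*, against 77113, 54519 and 62634 CPM in the others, and *Defa21* followed it. *Defa24* went the other way, at 291152 CPM under the limit and 229686 above it in WT. The related defensins *Defa20* (17647 and 93232 CPM in WT) and *Gm15308* (3862 and 38659 CPM) were also lower under the limit. *Lyz1* was lower there in all 3 libraries, with 4.11 per 100 *Defa24* under the limit and 7.88 above it in WT, 4.37 and 7.57 in *LApc*, and 6.36 and 10.8 in *LApcL*. *Ang4* showed the same order, at 2.39 and 4.79 in WT, 2.06 and 3.44 in *LApc*, and 3.87 and 4.80 in *LApcL*, while *Defa17* was higher under the limit, at 4.69 and 3.47 in WT. The limit and these ratios share *Defa24* as their denominator. In CPM, *Lyz1* was also lower under the limit, at 11953 and 18109 in WT, 11777 and 17436 in *LApc*, and 17026 and 23389 in *LApcL*. *Ang4* was lower in WT (6944 and 11013 CPM) and *LApc* (5546 and 7911 CPM). In *LApcL* it was about level, at 10373.5 and 10447 CPM. Depth did not go with the limit in 1 direction, since the median UMI count was 31089 under it and 53921 above it in WT, but 20000.0 and 12850.0 in *LApcL*. The difference in *Lyz1* per *Defa24* between *LApcL* and *LApc* was about as large on either side, at 0.54 under the limit and 0.51 above it on the log2 scale.

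**Figure D3:**
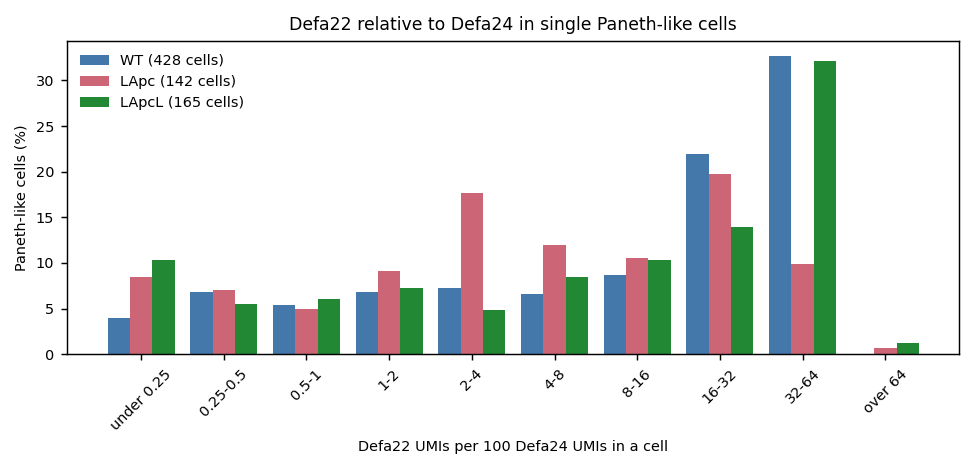
Share of Paneth-like cells of each library (%) by their Defa22 UMIs per 100 Defa24 UMIs. Cells spread from under 1 to over 40 in each library, and 38.6% of the cells of WT, 63.4% of LApc and 45.5% of LApcL had under 10.

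Goblet-like cells, marked by *Muc2*, *Tff3* and other mucus genes, carried *Defa24* at 11718 CPM in WT, 8669 in *LApc* and 17904 in *LApcL*, above the enterocyte-like level of each library. They did so without *Defa22* and *Defa21* in proportion. Per 100 *Defa24* UMIs, *Defa22* was at 4.69 in WT, 1.41 in *LApc* and 0.727 in *LApcL*, which is below the enterocyte-like ratio by -1.75, -2.65 and -3.65 on the log2 scale, and *Defa21* was below it by -1.75, -2.69 and -3.61. Their levels of 550.1, 122 and 130.2 CPM for *Defa22* were close to those of enterocyte-like cells (483, 84.4 and 91.5 CPM). After the enterocyte-like level had been subtracted, *Defa22* was at 0.774, 0.487 and 0.229 per 100 *Defa24* in goblet-like cells, against 23.7, 11.4 and 13.2 in Paneth-like cells. Subtraction assumes that every class takes up free RNA at the same rate.

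*Defa17*, the close sequence relative of *Defa24*, had a higher ratio in goblet-like cells, with 6.31, 6.89 and 8.08 per 100 *Defa24* in WT, *LApc* and *LApcL*, than in Paneth-like cells, with 3.86, 3.56 and 3.87. Its goblet-like ratio was above the enterocyte-like one by 0.41, 0.82 and 0.63 on the log2 scale. *Itln1*, at 11.9, 9.45 and 8.42 per 100 *Defa24*, and *Ang4*, at 4.59, 6.26 and 6.04, also stood at or above their enterocyte-like ratios. *Mptx2* was below them, at 0.466, 0.669 and 0.356. *Mmp7*, with 5.30, 7.26 and 6.92 UMIs per 100, lay farther above its enterocyte-like ratio than any other of the 10 genes in each library, by 2.70, 2.31 and 0.99 on the log2 scale. Its level there, 621 CPM in WT, 629 in *LApc* and 1239 in *LApcL*, came to 45.02%, 42.7% and 32.3% of all *Mmp7* UMIs of the library, while Paneth-like cells held 49.97%, 22.0% and 14.3%. For *Defa24*, Paneth-like cells held 88.7%, 79.7% and 74.4% of the UMIs and goblet-like cells 7.03%, 11.8% and 14.2%.

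Few cells carried much of the goblet-like defensin. The 1% of goblet-like cells with the most *Defa24* held 24.3% of its UMIs in WT, 40.6% in *LApc* and 29.9% in *LApcL*. When goblet-like cells were ordered by their *Defa24* level, 73 cells of WT, 23 of *LApc* and 55 of *LApcL* were over 100000 CPM. These had *Defa24* at 185285, 191507 and 190931 CPM, near the Paneth-like level, and *Defa17* at 14163, 16459.8 and 14843 CPM and *Itln1* at 14836, 18493 and 12501 CPM, also at Paneth-like levels. Yet *Defa22* was at 644, 649 and 375 CPM in them, or 0.347, 0.339 and 0.196 per 100 *Defa24*, which is lower than in the pooled Paneth-like cells under the limit above (2.68, 2.77 and 2.08). Some single Paneth-like cells had ratios as low, with 3.97% of those of WT, 8.45% of *LApc* and 10.3% of *LApcL* under 0.25. The mucin *Muc2* was at 7507, 8029 and 4437 CPM in the goblet-like cells with the most *Defa24*, close to the 7444, 10246 and 5688 CPM of those with the least, and far above the 556 to 638 CPM of Paneth-like cells of WT. The mucus genes *Tff3* and *Fcgbp* were lower in the cells with the most *Defa24*. *Tff3* was at 41751, 29569 and 22019 CPM, against 50520, 72866 and 47396 CPM in those with the least. *Fcgbp* was at 4587, 6732 and 2628 CPM, against 11003, 28195 and 13145 CPM. From the lowest to the highest *Defa24* level in WT, *Defa24* ran from 2228 to 185285 CPM and *Defa22* from 367 to 644 CPM.

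**Figure D4:**
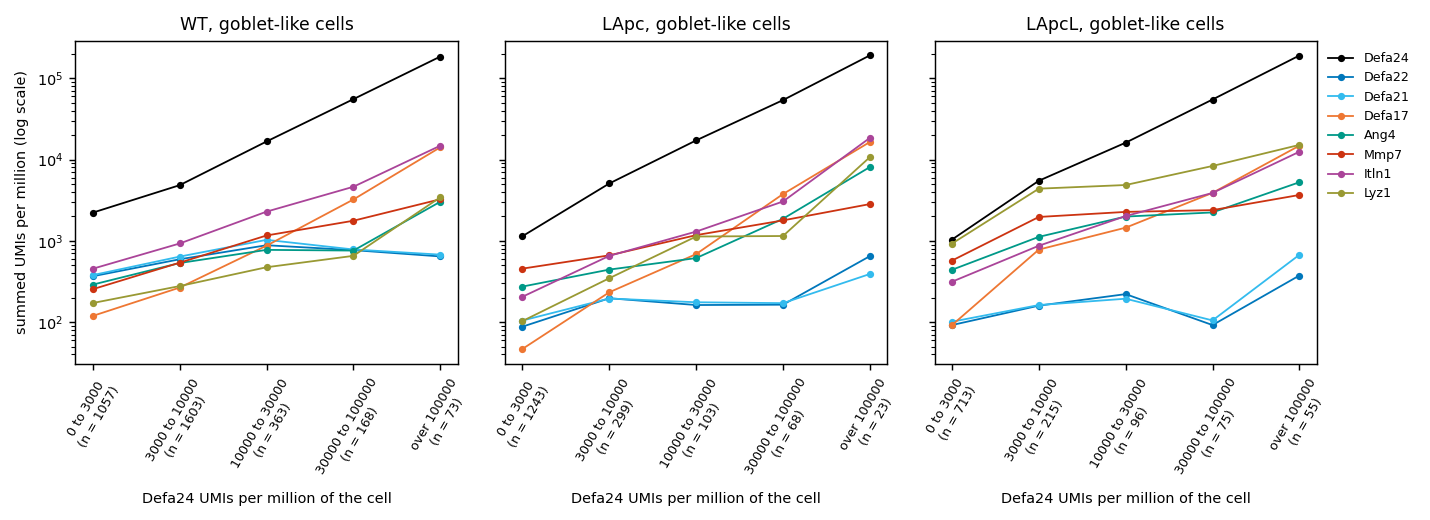
Summed level in CPM (log axis) of 8 of the genes in goblet-like cells grouped by the Defa24 level of the cell, 1 panel per library, with the number of cells under each group. Defa17 and Itln1 climb with Defa24 to 14163 and 14836 CPM in WT, whereas Defa22 and Defa21 are at 644 and 677 CPM in the same cells.

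*Lyz1* in goblet-like cells differed most between the libraries, with 350.5 CPM in WT, 453 in *LApc* and 3144 in *LApcL*. *LApcL* was above *LApc* 6.95-fold, or 2.80 on the log2 scale (2.75 to 2.84). Relative to *Defa24*, *Lyz1* was at 2.99 per 100 in WT, which is below the enterocyte-like ratio by -0.73 on the log2 scale (-0.79 to -0.67), at 5.22 in *LApc* and at 17.6 in *LApcL*, above it by 0.18 and 0.26. Enterocyte-like cells of *LApcL* without a *Sox17* or *Msx1* UMI were lower, at 10.8, so the *LApcL* difference would be larger against them. After subtraction of the enterocyte-like level, the WT ratio was below that of Paneth-like cells by -1.54 on the log2 scale. In *LApcL*, the goblet-like cells with the least *Defa24* had *Lyz1* at 926 CPM, against 103 CPM in *LApc* and 172 in WT, so *LApcL* was highest in cells with little *Defa24* too, while WT and *LApc* changed places. After thinning, 50.9% of goblet-like cells of *LApcL* held a *Lyz1* UMI, against 28.5% of its enterocyte-like cells (median depths 7166 and 8174 UMIs). The shares were 24.97% and 11.3% in *LApc* and 47.3% and 34.0% in WT. Cells of *LApcL* with a *Sox17* or *Msx1* UMI, 34.7% of goblet-like cells, had *Lyz1* at 4818 CPM, and those without at 2189.6 CPM.

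Between *LApcL* and *LApc*, 4 of the 10 genes were past 2-fold in goblet-like cells, all higher in *LApcL* (*Lyz1*, *Defa17*, *Defa3* and *Defa24*), where 3.42% of all genes tested were past 2-fold in either direction. Their log2 ratios were 2.80, 1.28, 1.15 and 1.05, and those of *Ang4* (1.00), *Mmp7* (0.98) and *Itln1* (0.88) lay just inside the limit. *Defa22* was at 0.09 (-0.02 to 0.21) and *Mptx2* at 0.13. The median of all genes was 0.17 and that of the 10 genes 0.99. Between *LApc* and WT, 2 of the 10, *Defa22* (-2.17) and *Defa21* (-2.19), were past 2-fold lower, where 3.03% of all genes were past 2-fold. The enterocyte-like levels of these genes differed in the same direction, by -2.52 and -2.49.

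Adenoma-enriched cells were Wnt/TA-like clusters to which WT gave under 10% of cells at equal library weights, and numbered 3 in WT, 1234 in *LApc* and 8559 in *LApcL*. Their defensins kept the ratios of enterocyte-like cells. *Defa24* was at 848 CPM in *LApc* and 630.0 in *LApcL*, below the enterocyte-like level of each library, and *Defa22*, *Defa21*, *Defa17*, *Defa3* and *Ang4* lay within 0.29 of the enterocyte-like ratio on the log2 scale. *Lyz1*, *Mmp7* and *Itln1* stood apart from them. *Lyz1* was at 240.4 CPM in *LApc* and 737 in *LApcL*, or 28.3 and 117 UMIs per 100 *Defa24*, above the enterocyte-like ratio by 2.62 (2.49 to 2.74) and 3.00 (2.92 to 3.07) on the log2 scale. *Mmp7* was at 386 CPM in *LApc* and 139.7 in *LApcL*, or 45.5 and 22.2 per 100 *Defa24*, above by 4.95 and 2.67. *Itln1* was at 218 and 80.7 CPM, or 25.7 and 12.8 per 100, above by 2.30 and 1.40, and *Mptx2* at 20.3 and 5.05 CPM, above by 1.13 and 0.28. Because *Defa24* was under the enterocyte-like level, no level remained for the ratio after subtraction.

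After thinning, 49.2% of adenoma-enriched cells of *LApc* held an *Mmp7* UMI against 4.23% of enterocyte-like cells, and 28.4% against 8.46% did in *LApcL*. For *Lyz1* the shares were 21.9% against 11.3% in *LApc* and 49.9% against 28.5% in *LApcL*, and for *Itln1* 26.5% against 12.9% and 15.8% against 11.4%. Median depths were 7591 and 11759 UMIs in adenoma-enriched cells and 6063 and 8174 in enterocyte-like cells. With 8559 cells, the adenoma-enriched class of *LApcL* held 41.0% of all *Lyz1* UMIs of its library and 41.1% of *Mmp7*, more than Paneth-like cells did (37.7% and 14.3%), but 5.65% of *Defa24*. In *LApc* it held 5.71% of *Lyz1* and 26.7% of *Mmp7*.

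Between *LApcL* and *LApc*, 4 of the 9 genes with 10 CPM or more in these cells were past 2-fold, *Lyz1* higher at 1.62 on the log2 scale (1.56 to 1.68) and *Mmp7* (-1.46), *Mptx2* (-2.01) and *Itln1* (-1.43) lower, where 8.98% of all genes tested were past 2-fold, 69 higher and 679 lower. TMM scaling, which centres the libraries on the bulk of their genes, moved the median log2 ratio of all genes from -0.10 to 0.13 and that split to 126 and 516, and left the number of members at 4. The day after tamoxifen differs along with the genotype here, 29 in *LApc* and 21 in *LApcL*. Adenoma-enriched cells of *LApc* were of 2 kinds by their markers. Those with more *Wfdc18* than *S100g* UMIs (603 cells) had *Lyz1* at 84.2 CPM, *Mmp7* at 451 and *Itln1* at 178, and the other 631 cells had 403, 317 and 260.0 CPM. In *LApcL*, 195 cells were of the *Wfdc18* kind, and the other 8364 had 745, 136 and 74.6 CPM. Among cells that were not of the *Wfdc18* kind, *Lyz1* therefore differed by less than 2-fold between *LApcL* and *LApc*.

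The defensins differed far less than *Lyz1* across adenoma-enriched cells grouped by their *Lyz1* level. In *LApcL*, 1814 cells without a *Lyz1* UMI had *Defa24* at 561 CPM, and 251 cells over 5000 CPM of *Lyz1*, with a summed *Lyz1* level of 8447 CPM, had *Defa24* at 836 CPM. *Defa22* was at 61.2 and 69.7 CPM in these 2 sets, and *Ang4* at 17.0 and 46.8 CPM. *Defa24* rose at each step of *Lyz1* between them. *Defa22* and *Defa21* were highest, at 93.4 and 102 CPM, in the 605 cells at 2000 to 5000 CPM of *Lyz1*. In Paneth-like cells, by comparison, 8.19 *Lyz1* UMIs stood beside 100 of *Defa24* in *LApcL*. In *LApc*, 803 cells without a *Lyz1* UMI had *Defa24* at 763 CPM and 10 cells over 5000 CPM of *Lyz1* had it at 665 CPM. *Lyz2*, the lysozyme of myeloid cells, shares windows with *Lyz1* and was at 20.9 CPM in the *LApc* cells of this class and 0.544 CPM in those of *LApcL*. A list of 7 immune markers summed to 481 and 63.5 CPM there, nearly all of it *Cd74* (468 and 63.1 CPM), which enterocyte-like cells also held at 929 and 524 CPM. Without the 25 and 61 cells that had a *Lyz2* or *Ptprc* UMI, *Lyz1* was at 211 and 713 CPM. A mixed cluster that got no name, with 242 cells in *LApcL*, is not in this class and had *Sox17* at 244 CPM there. In it, *Defa24* was 19.2-fold and *Lyz1* 15.7-fold the enterocyte-like level of *LApcL*.

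**Figure D5:**
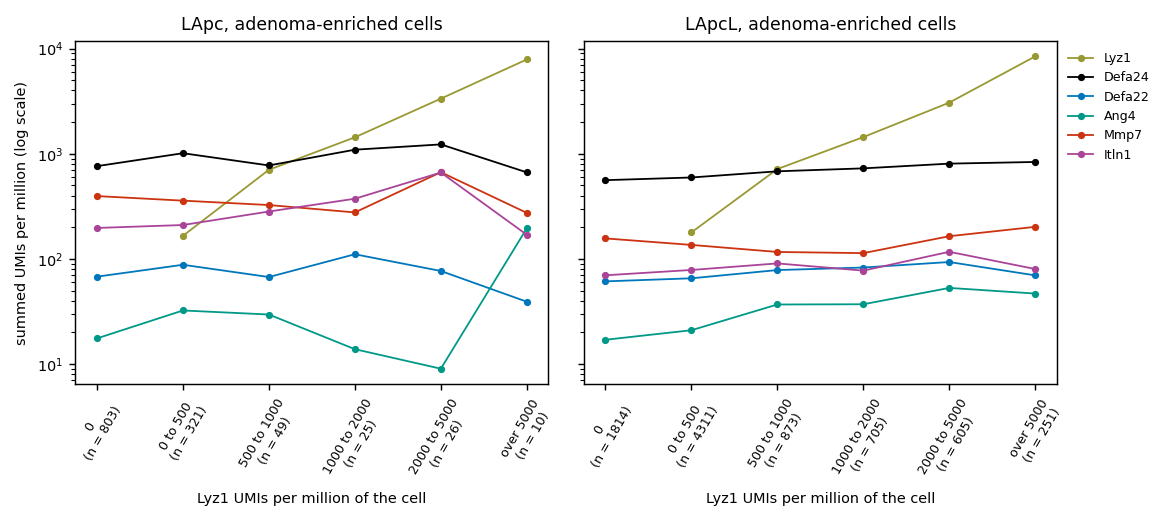
Summed level in CPM (log axis) of 6 of the genes in adenoma-enriched cells grouped by the Lyz1 level of the cell, for LApc and LApcL, with the number of cells under each group. Lyz1 is the quantity used for grouping, while Defa24 is at 561 CPM in the cells of LApcL without Lyz1 and at 836 CPM in those with the most.

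*Lyz1* and *Mmp7* also stood above the enterocyte-like ratio in the enteroendocrine-like, Wnt/TA-like and tuft-like cells of *LApcL*. They were not the only genes to do so in enteroendocrine-like and tuft-like cells. In log2 of CPM against enterocyte-like cells of *LApcL*, *Ang4* and *Itln1* were at 1.33 and 1.14 in enteroendocrine-like cells, beside 0.56 for *Defa24*. In tuft-like cells *Defa22* and *Defa21* were at 1.26 and 1.24, beside 0.92 for *Lyz1* and 0.52 for *Defa24*. In enteroendocrine-like cells, marked by hormone and granin genes, *Lyz1* was at 243 CPM in WT, 88.5 in *LApc* and 675 in *LApcL*, or 4.65, 4.83 and 45.8 per 100 *Defa24*, and *Mmp7* at 153, 54.9 and 211 CPM. *Mmp7* was above the enterocyte-like ratio there in every library, by 1.84 in WT, 1.03 in *LApc* and 2.04 in *LApcL* on the log2 scale, whereas *Lyz1* was at -0.09, 0.06 and 1.65. In Wnt/TA-like cells, *Mmp7* was at 22.1, 37.2 and 159.9 CPM and *Lyz1* at 149.7, 40.5 and 159 CPM. *Mmp7* lay above the enterocyte-like ratio by 1.49 in *LApc* and 2.60 in *LApcL* on the log2 scale, and at -0.12 in WT, and *Lyz1* at 0.04, -0.04 and 0.52 in WT, *LApc* and *LApcL*. *Mmp7* UMIs were found in 28.6% of thinned Wnt/TA-like cells of *LApcL* against 8.46% of enterocyte-like cells. Between *LApcL* and *LApc*, *Lyz1* and *Mmp7* were the 2 genes past 2-fold, both higher, in either class, of 8 tested in Wnt/TA-like cells (background 2.63%) and of 10 in enteroendocrine-like cells (background 11.2%). The log2 ratio of *Lyz1* was 1.97 in the former class and 2.93 in the latter, and that of *Mmp7* 2.105 and 1.94. The same 2 genes, of 9 tested, were past 2-fold higher in enterocyte-like cells (background 4.35%), at 1.73 for *Lyz1* and 1.31 for *Mmp7*. The part of free RNA in these differences was not tested. Tuft-like cells of WT gave the enterocyte-like ratios, with *Mmp7* at 0.43 above on the log2 scale as the largest difference. In tuft-like cells of *LApcL*, *Mmp7* was above the enterocyte-like ratio by 1.28 and *Lyz1* by 0.40. In *LApc*, 1 of the 73 tuft-like cells held 89.1% of their *Defa24* UMIs, so their ratios are those of that cell.

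Across 26 sums of a class in a library with at least 50 cells, *Defa22* and *Defa21* had closely alike levels (Pearson r = 0.99 of log2 CPM with 10 CPM added), whereas *Defa24* and *Mmp7* had r = 0.75 and *Defa22* and *Mmp7* r = 0.58. Of the 4772 genes that reached 50 CPM in at least 1 sum, *AY761184* (r = 0.98), *Gm14850*, *Defa26*, *Gm7861* and *Gm15284* (each r = 0.97) were, outside the 10, most like *Defa24*, and *Gm15315* (0.90), *Rnase1* (0.87), *Gm6696* (0.86), *Defa26* (0.86) and *Gm15293* (0.85) most like *Lyz1*. The sums of a library share its free RNA, so they are not independent points, and the values are given as a description.

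Of 50 further genes listed for Paneth cell biology, 49 were measured. In Paneth-like cells, the *Reg3* lectins, which bind bacterial walls and limit their contact with the epithelium, and *Zg16*, a lectin of goblet cells, differed between *LApcL* and *LApc*. *Reg3g* was at 731 CPM in *LApcL* and 2134 in *LApc*, *Reg3b* at 519 and 1408, and *Zg16* at 416 and 1598 CPM, with log2 ratios of -1.55, -1.44 and -1.94. In goblet-like cells *Zg16* was at 44062 CPM in *LApcL* and 127362 in *LApc*, and the part of free RNA in the Paneth-like difference was not tested. Other antimicrobial genes were lower in *LApcL* in other classes too. Their median log2 ratio was -1.31 in Paneth-like, -0.73 in enterocyte-like, -1.08 in Wnt/TA-like and -0.95 in enteroendocrine-like cells. It was -0.48 in goblet-like and -1.55 in adenoma-enriched cells. In Paneth-like cells, of 6 other antimicrobial genes tested between *LApcL* and *LApc*, 4 were past 2-fold lower and 0 higher. Of 18 other defensins none was past it in either direction, nor were the 6 genes of Paneth fate and granules or the 1 niche signal tested. Of all genes tested there, 6.79% were past 2-fold, 120 higher and 143 lower, so few of such short lists would be past it at that share. The defensins *Gm15315* (0.84) and *Gm21002* (0.66) and the niche signal *Wnt3* (0.91, from 92 and 31 UMIs) had the highest log2 ratios. Between *LApc* and WT, the defensins *Gm15308* (-1.10), *Gm21002* (-1.09) and *Defa20* (-0.94) were lowest, the first 2 of 18 past 2-fold, and *Reg3b* (2.09), *Sox9* (1.06) and *Spdef* (0.88), the last both transcription factors of secretory cells, were highest. In that comparison 25.0% of all genes tested were past 2-fold, 863 higher and 9 lower. The median log2 ratio of all genes was 0.72, so *Sox9* and *Spdef* lay not far above it. In goblet-like cells of *LApcL*, 5 of 12 other defensins were past 2-fold higher than in *LApc* and none lower (3.42% of all genes in either direction). The pentraxin *Mptx1* (2.07), the zinc transporter *Slc30a2* (2.01) and *Wnt3* (1.75) had the highest log2 ratios and *Zg16* (-1.53), *Reg3b* (-1.27) and *Reg3g* (-0.93) the lowest. In goblet-like cells of *LApc*, 10 of 15 other defensins were past 2-fold lower than in WT (3.03% of all genes in either direction), *Gm15308* (-3.15) and *Defa20* (-2.62) most of all together with *Mptx1* (-2.85), whereas *Retnlb* (2.06), an antimicrobial protein of goblet cells, *Zg16* (1.16) and *Reg3b* (0.80) had the highest ratios. In enterocyte-like cells, the gauge of free RNA, 13 of 13 other defensins tested were past 2-fold lower in *LApc* than in WT (4.28% of all genes in either direction). The median log2 ratio of the other defensins was -1.64 there and -1.35 in goblet-like cells. In adenoma-enriched cells, 4 of 6 other antimicrobial genes, 5 of 8 genes of fate and granules and 2 of 8 other defensins were past 2-fold lower in *LApcL* than in *LApc* and none of these higher, where 8.98% of all genes were past 2-fold, 679 of them lower and 69 higher. *Lyz2* (-5.26), *Irgm1* (-2.70) and *Spdef* (-2.17) were lowest, and *Fzd5* (0.76), *Gm15308* (0.69) and *Defa20* (0.08) highest.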

How the data were processed

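Droplet libraries of sorted EpCAM+ small intestinal cells were available for WT, *LApc* and *LApcL*, with 1 mouse each. The authors quantified them with Cell Ranger 2.1.1 on mm10 (GRCm38), and the deposited values are raw UMI counts per gene and barcode, without normalization. The kit version is given in the methods as a choice and not per library, so kit cannot be told apart from library. The authors' cell annotation was not used here.

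Per library, the 1% of barcodes with the fewest and with the most genes and barcodes over 20% mitochondrial UMIs were removed. Doublets were scored with Scrublet (scanpy 1.11.5). Its automatic limit marked 2065, 4 and 755 cells, so cells were instead taken out from the top score down, to the rate expected for the number of barcodes (9.16%, 10.6% and 13.9%), which took 1023, 1135 and 2326 cells. This choice followed that outcome. Cells were integrated and clustered with Seurat 5.3.0 (R 4.3.3, 20 components, 20 neighbours, resolution 0.2), with the 10 genes left out of the features. A cluster was named from a list with at least 3 markers, and at least 40% of the list, at 10 CPM or more and 1.5-fold over the other clusters. No other list that passed could score over 0.5 of the best one. No other list could hold more of the cluster's 10 leading genes either. These numeric limits were chosen with the clusters in view. A Fabp6-led cluster and a mixed cluster (50, 183 and 242 cells) got no name. The mixed cluster had 5 of 14 Wnt/TA markers raised, which is under the 40% limit.

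UMI counts were summed per class and library. With 1 library per group there is no replicate, and no test was run. Levels have exact Poisson intervals, shares exact Clopper-Pearson intervals, fold changes exact conditional intervals and ratios of ratios Wald or MOVER intervals, all at 95% and for counting error only. Comparisons across all genes used genes at 10 CPM or more in either library and a limit of 2-fold. Shares of cells with a UMI of the 10 genes were taken after thinning to 3000 UMIs, and those with a *Sox17* or *Msx1* UMI without thinning. Simulated Poisson counts were used to test the 2-fold limit, the coverage of the intervals of ratios of ratios, and the recovery of 1 such ratio. Doublet removal, clustering, naming of classes, thinning and subtraction were not tested in this way. Sequences came from the GRCm38 transcripts and the RefSeq promoter table and were aligned with Biopython 1.88.

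All 10 genes are named in every main class. Of 49 other listed genes, the 3 with the highest and the 3 with the lowest log2 ratio per comparison are named, and for likeness the 5 genes with the highest r. The 10 genes, the lists and the markers were chosen with earlier results of these data known. Alternatives covered the resolution, classes from marker scores, the features, the mitochondrial limit, doublets, cells with the most UMIs, the reference for ratios, scaling and the filter on low counts.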

Additional observations from a re-analysis of the deposited data

Results flagged for a closer look

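Barcodes over the mitochondrial limit were in none of the comparisons. They numbered 62 in WT, 2342 in *LApc* and 413 in *LApcL* before the other filters. In those of *LApcL*, *Lyz1* was at 377 CPM (interval 347 to 408), above the 271 CPM (226 to 322) of WT, and *Mmp7* was at 123 CPM (107 to 142), above 36.3 CPM (21.1 to 58.1). *Defa24* went the other way, at 2155 CPM in *LApcL* and 4991 in WT. In *LApc*, *Lyz1* was at 138 CPM and *Mmp7* at 55.9 CPM. A single library per genotype means that these differences were not tested.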

How the results depend on the processing

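Each value has 1 library behind it, so leaving out a library or a replicate block could not be tried. No paired analysis was possible because each group has 1 sample. No value changed sign under the alternatives run. The alternatives without cells that carry a *Sox17* or *Msx1* UMI, a *Lyz2* or *Ptprc* UMI or more *Wfdc18* than *S100g* UMIs, and those on either side of the *Defa22* limit, were chosen after seeing the data.

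*Lyz1* per *Defa24* in adenoma-enriched against enterocyte-like cells (log2) was 3.00 in *LApcL*. It was 2.92 at resolution 0.4, 2.55 with classes from marker scores, 2.77 without defensins among the features, 3.10 with a mitochondrial limit of 10%, 3.10 with doublets removed at 2 times the expected rate, 2.63 without the 1% of cells with the most UMIs of the 10 genes, and 3.44 against enterocyte-like cells without a *Sox17* or *Msx1* UMI. In *LApc* it was 2.62, and 2.75 with marker scores, 2.34 without defensin features, 3.28 without the *Wfdc18* cells and 2.45 without cells with a *Lyz2* or *Ptprc* UMI. After subtraction of the enterocyte-like level, *Defa24* was at -370.1 CPM in *LApcL* and -110.2 CPM in *LApc*, so no ratio could be formed. In goblet-like cells of WT it was -0.73, and -0.82 with doublets removed at 2 times the rate, -0.62 without the top 1% of cells, -0.48 against the sum of the 5 defensins and -1.54 after subtraction, against Paneth-like cells.

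The difference of *LApcL* and *LApc* in Paneth-like cells was 0.52, and 0.69 with marker scores, 0.48 without defensin features, 1.25 with doublets removed at 2 times the rate, 0.50 against the sum of the defensins and 0.44 in cells without a *Sox17* or *Msx1* UMI. The cause of these shifts was not tested. The number of the 10 genes past 2-fold in adenoma-enriched cells was 3 or 4 under the 12 alternatives tried, while the share of all genes past it was 33.5% with no filter on low counts. Depth bears on shares of cells with a UMI, of which 213 of 260 were higher without thinning.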
